A study of Mus musculus with 11 samples.

Results

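The genes described here were 10 components of the NF-κB system, chosen by symbol from the 25677 genes counted in kidneys. They were the 5 NF-κB subunits (Rela, Relb, Rel, Nfkb1 and Nfkb2) and 5 inhibitors and regulators of these subunits (Nfkbia, Nfkbie, Nfkbiz, Tnfaip3 and Bcl3). All 10 were listed, and all 10 passed the filter on low counts in every comparison, with between 102 and 5298 counts per kidney. RNA was sequenced from kidneys of 21-week-old female mice, with 1 library per mouse. The control group (Ctr, n = 3) was C57BL/6J (C57B6 in the labels). The model group (Lpr, n = 4) was untreated MRL/lpr, a strain with a Fas mutation on the MRL background that develops a lupus-like nephritis. The treated group (DNase, n = 4) was MRL/lpr given DNase I, an enzyme that cuts extracellular DNA, by daily intraperitoneal injection from week 17 to week 21. Strain and disease change together between Ctr and both MRL/lpr groups, so their parts in a difference from Ctr cannot be told apart. Whether Lpr and Ctr mice were given an injection is not stated in the sources used here. Kidney tissue was labelled in all 11 libraries, and the summed level of 7 proximal tubule markers lay between 4936 and 11846 CPM (gene counts divided by library size, after TMM adjustment of the sizes in edgeR), with none of the 7 at 0 in all kidneys of a group.

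NF-κB is a family of dimeric transcription factors held inactive in the cytoplasm by IκB proteins. Signals from Toll-like receptors and receptors of the tumor necrosis factor family activate IκB kinase, the inhibitor is degraded, and the dimer enters the nucleus and switches on cytokine, chemokine, adhesion and survival genes. The canonical arm uses mainly RelA, c-Rel and p50, while the non-canonical arm processes the Nfkb2 product p100 to p52, which pairs with RelB. Several genes of the system are textbook targets of NF-κB itself, among them Nfkbia, Nfkbie, Tnfaip3, Bcl3, Nfkb2, Relb and Rel, and their products form negative and positive feedback loops. In lupus nephritis NF-κB activity is known both from infiltrating leukocytes and from kidney cells.

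NF-κB dimers bind the 10-base κB site, so the stretches before the transcription start of genes with a match are shown first. RefSeq windows of 250 bases before to 50 after a start (GRCm38.p6) were found for 7 of the 10 genes. Relb, Nfkb1 and Nfkbiz had no entry. The κB consensus, searched on both strands, was found near at least 1 start of 6 of these 7 genes (Rel, Nfkb2, Nfkbia, Nfkbie, Tnfaip3 and Bcl3), and not in the Rela window. It was present near a start of 5.14% of all 27025 genes, and in 4.51% of the 32851 windows. The narrower motif GGGNNTTTCC, whose matches in these genes all overlap a match of the consensus, was found in 4 of the 7 genes (Rel, Nfkb2, Nfkbia and Tnfaip3) and in 1.89% of all genes. In the lines below, capitals mark the matches to the consensus, and each stretch is written 5′ to 3′ on the strand of its gene.
Rel (chr11:23770971-23771119, minus strand): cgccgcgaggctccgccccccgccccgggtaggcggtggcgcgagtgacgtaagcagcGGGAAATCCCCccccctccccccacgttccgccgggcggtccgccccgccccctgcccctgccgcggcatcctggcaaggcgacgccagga
Nfkb2, distal match (chr19:46304688-46304717, plus strand): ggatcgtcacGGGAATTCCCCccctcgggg
Nfkb2, proximal match (chr19:46304718-46304736, plus strand): ggccgaaaGGGGCTTTCCc
Nfkbia (chr12:55492648-55492797, minus strand): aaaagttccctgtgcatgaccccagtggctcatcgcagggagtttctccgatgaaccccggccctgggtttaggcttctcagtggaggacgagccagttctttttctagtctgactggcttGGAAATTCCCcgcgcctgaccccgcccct
Nfkbie (chr17:45555550-45555699, plus strand): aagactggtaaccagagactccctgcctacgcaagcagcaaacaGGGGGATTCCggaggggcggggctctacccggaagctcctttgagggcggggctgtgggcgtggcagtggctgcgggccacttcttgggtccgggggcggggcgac
Tnfaip3 (chr10:19015411-19015547, minus strand): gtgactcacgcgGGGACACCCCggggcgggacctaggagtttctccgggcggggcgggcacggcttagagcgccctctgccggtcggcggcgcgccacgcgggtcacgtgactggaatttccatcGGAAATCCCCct
The Rel and distal Nfkb2 matches were each found on both strands. For Nfkb2 the stretches lie in exons of the GENCODE M21 annotation that start further upstream, so short stretches are shown. In Bcl3 the match, GGGACTTCCC on the opposite strand, lies at chr7:19822744-19822753, just inside the transcribed part. These are matches of letters, and the RNA data do not show whether a site was bound.

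**Figure D1:**
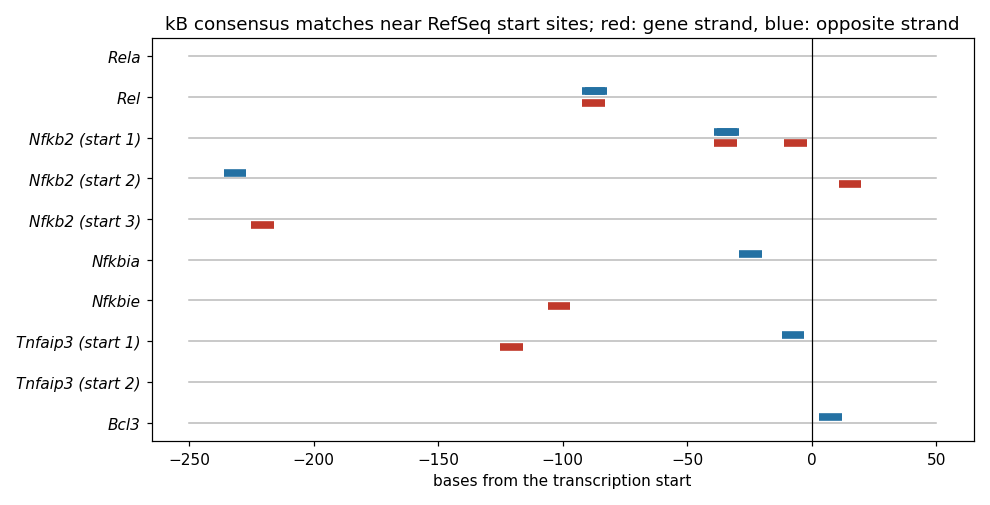
Matches to the κB consensus by distance in bases from the RefSeq transcription start of 7 genes of the NF-κB system, with several rows where a gene has several starts (red, strand of the gene; blue, opposite strand). The Nfkbia match begins 29 bases before the start and the Nfkbie match 106 bases before it, and the rows of Rela and of the second Tnfaip3 start hold no match.

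The libraries held between about 33469900 and 38460900 counts on genes. A pair of kidneys stood apart in ways that touch these genes, where a kidney is named by its group and replicate number. In Lpr replicate 3, longer genes had lower counts: the deviation of a gene from its mean over all kidneys changed by -0.35 on the log2 scale for each doubling of length, and in the other 10 kidneys this value lay between -0.03 and 0.07. In Lpr replicate 2, genes of the immediate-early response, which are transcribed within minutes of a stimulus, were high. Their list was chosen after the values of this kidney were seen. Of 23 such genes, 20 had their highest level of all 11 kidneys in Lpr replicate 2, and the list summed to 3475 CPM there against 479.7 to 1065 CPM in the other 10. Fosb had 277.7 CPM in Lpr replicate 2 and between 0.370 and 10.8 CPM elsewhere, and Egr1 had 279.5 CPM against 9.99 to 50.8 CPM. RNA of leukocytes also differed. T cell markers summed to 2.97 to 5.15 CPM in Ctr, 34.7 to 102.0 in Lpr and 36.6 to 68.5 in DNase, with the highest value in Lpr replicate 2. Macrophage markers summed to 137 to 174 CPM in Ctr, 615 to 1239 in Lpr and 506 to 958 in DNase, again with the highest value in Lpr replicate 2. Plasma cell markers summed to 173 to 189, 389.6 to 1029 and 454 to 1247 CPM in these groups, B cell markers to 2.33 to 7.70, 8.44 to 18.4 and 13.8 to 30.2 CPM, and neutrophil markers to 1.92 to 5.10, 14.997 to 36.9 and 13.3 to 24.2 CPM. Between Lpr and Ctr 6 of 6 T cell, 7 of 7 macrophage, 4 of 5 plasma cell, 3 of 4 neutrophil and 1 of 5 B cell markers tested were higher at an adjusted p under 0.05 (edgeR's quasi-likelihood test with Benjamini-Hochberg adjustment over all genes). Ly6g, a defining neutrophil marker, was at 0 in all 3 Ctr kidneys and had 0 to 3 counts per kidney in Lpr and in DNase. The part of these cells in the results below was not tested, and in whole kidney a change in the number of cells of a type and a change in RNA per cell cannot be told apart.

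On the scale per gene length (FPKM), Nfkbia and Rela were the most abundant of the 10 genes in Ctr kidneys, at 19.6 ± 4.43 and 16.4 ± 1.24 FPKM (SD, n = 3). Their ranges overlapped, from 15.7 to 24.4 and from 15.5 to 17.8 FPKM. Nfkb1 followed at 8.71 ± 1.21 FPKM (SD, n = 3), and Bcl3 at 3.74 ± 0.688 FPKM (SD, n = 3). Nfkbie (2.06 FPKM), Nfkb2 (1.81 FPKM), Tnfaip3 (1.46 FPKM), Nfkbiz (1.17 FPKM) and Relb (1.02 FPKM) lay close together, and of these neighbours Nfkb2 and Tnfaip3 did not overlap. Rel, at 0.420 ± 0.0611 FPKM (SD, n = 3), was the lowest. The order depends on the gene length that the authors used. For Nfkb2 that length was 11300 bases, more than the 8066 bases the gene spans in GENCODE M21 and against 4584 bases of exons there. For Relb it was 6167 bases against 3885, and for Nfkb1 4555 bases against 12061. Comparisons of 1 gene between kidneys do not use the length and are given in CPM below.

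Rela encodes p65, the main activating subunit of the canonical arm (GENCODE M21 gene, GRCm38/mm10, as for the other genes, chr19:5637483-5648130, plus strand). The 3 Ctr kidneys had 45.5, 48.7 and 52.0 CPM. In Lpr replicates 1 to 4 the levels were 62.8, 84.1, 51.0 and 52.3 CPM. With DNase I they were 46.0, 49.7, 55.3 and 51.2 CPM. The groups overlapped, and only Lpr replicates 1 and 2 lay above all other kidneys. The log2 fold change of Lpr over Ctr was 0.37 (standard error 0.21, adjusted p = 0.376 from edgeR), and that of DNase over Ctr was 0.06 (95% interval -0.14 to 0.25, adjusted p = 0.699 from edgeR).

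Nfkb1 encodes p105, the precursor of the DNA-binding subunit p50 (chr3:135584655-135691547, minus strand). Its Ctr levels were 41.0, 36.3 and 45.7 CPM. The Lpr levels were 55.3, 65.4, 48.1 and 57.0 CPM, and the DNase levels were 51.6, 59.3, 58.6 and 53.8 CPM. All 8 MRL/lpr kidneys lay above all Ctr kidneys, by a small margin for Lpr replicate 3. The log2 fold change was 0.46 in Lpr (standard error 0.17, adjusted p = 0.146 from edgeR) and 0.45 in DNase (standard error 0.10, adjusted p = 0.0101 from edgeR), so that the gene was higher than in Ctr by the test in DNase. Without Lpr replicate 3 the Lpr value was 0.54 with an adjusted p of 0.02 from edgeR.

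Rel encodes c-Rel, the activating subunit best known from lymphocytes and myeloid cells (chr11:23736847-23770970, minus strand). Ctr kidneys had 2.79, 3.26 and 3.69 CPM. The Lpr levels were 5.49, 23.4, 4.78 and 7.74 CPM. DNase kidneys had 6.29, 5.30, 5.82 and 5.07 CPM. Every MRL/lpr kidney lay above every Ctr kidney, and Lpr replicate 2 had 3.89 times the mean of the other 3 Lpr kidneys. The log2 fold change of Lpr over Ctr was 1.68 (standard error 0.57, adjusted p = 0.116 from edgeR) with this kidney and 0.87 (standard error 0.28, adjusted p = 0.129) without it. Rel passed without Lpr replicate 3 (1.92, adjusted p = 0.0445) and without Lpr replicates 2 and 3 (1.03, adjusted p = 0.0415). DNase over Ctr gave 0.80 (standard error 0.17, adjusted p = 0.00947 from edgeR), so that Rel was higher in DNase in this fit, while the adjusted p was 0.404 with all 3 groups in 1 fit.

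Relb encodes the subunit of the non-canonical arm (chr7:19606217-19629438, minus strand). In Ctr its levels were 5.77, 6.38 and 7.43 CPM. In Lpr they were 16.99, 20.9, 22.9 and 10.5 CPM, and in DNase 12.9, 12.4, 14.4 and 13.3 CPM. No Ctr kidney reached the lowest MRL/lpr kidney, and the Lpr kidneys spread both above and below the DNase kidneys. Relb was higher in Lpr (log2 fold change 1.45, standard error 0.29, adjusted p = 0.0138 from edgeR) and in DNase (1.03, standard error 0.13, adjusted p = 0.000468). Without Lpr replicate 2 the Lpr value was 1.35, still under the threshold at an adjusted p of 0.0407, while the adjusted p was 0.0787 without Ctr replicate 1 and 0.0656 without Ctr replicate 2.

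Nfkb2 encodes p100, the precursor of p52 and partner of RelB (chr19:46304320-46312385, plus strand). Its Ctr levels of 19.5, 21.7 and 22.4 CPM were close to each other. Lpr kidneys had 38.3, 50.6, 40.4 and 29.6 CPM, and DNase kidneys had 26.0, 35.7, 36.1 and 32.5 CPM. Again all MRL/lpr kidneys were above all Ctr kidneys, and DNase replicate 1 was the lowest of them. Nfkb2 was higher in Lpr (log2 fold change 0.91, standard error 0.21, adjusted p = 0.026 from edgeR) and in DNase (0.63, standard error 0.13, adjusted p = 0.00671). The Lpr call was lost without any 1 of Lpr replicate 1 or 2 or a Ctr kidney, with adjusted p between 0.0553 and 0.134 (edgeR). The gene overlaps Psd and AC114539.1 on the other strand, and whether reads were counted by strand is not given in the sources used here.

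Nfkbia encodes IκBα, the classical inhibitor, which is resynthesised after each round of activation (chr12:55489410-55492647, minus strand). Ctr kidneys had 25.3, 41.2 and 30.1 CPM. Lpr kidneys had 36.2, 138.2, 58.2 and 46.8 CPM. DNase kidneys had 49.6, 35.5, 41.8 and 38.8 CPM. The groups overlapped, and Lpr replicate 2 had 2.94 times the mean of the other Lpr kidneys. The log2 fold change of Lpr over Ctr was 1.13 (standard error 0.46, adjusted p = 0.19 from edgeR), and 0.53 (standard error 0.26, adjusted p = 0.333) without that kidney. DNase over Ctr gave 0.37 (standard error 0.17, adjusted p = 0.162), and 0.58 with an adjusted p of 0.027 (edgeR) without Ctr replicate 2, the highest of the controls.

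Nfkbie encodes IκBε, an inhibitor that is induced later than IκBα and binds mainly RelA and c-Rel (chr17:45555703-45563169, plus strand). Its Ctr levels were 4.80, 5.94 and 4.89 CPM. Those of Lpr were 21.4, 38.6, 27.0 and 14.2 CPM, and those of DNase 13.5, 19.4, 19.0 and 19.6 CPM. The lowest MRL/lpr kidney, DNase replicate 1, lay well above the highest Ctr kidney. Nfkbie was higher in Lpr (log2 fold change 2.29, 95% interval 1.51 to 3.07, adjusted p = 0.00384 from edgeR) and in DNase (1.78, 95% interval 1.41 to 2.16, adjusted p = 8.00e-05). Without Lpr replicate 2 the Lpr value was 1.99 with an adjusted p of 0.00592, so that it no longer exceeded the threshold of 2 that the study set on log2 fold changes. With all kidneys, Nfkbie was the member with the largest change from Ctr in both groups, but without Lpr replicate 3 the Lpr value of Tnfaip3 (2.30) was above that of Nfkbie (2.25).

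Tnfaip3 encodes A20, a ubiquitin-editing enzyme that ends signalling upstream of IκB kinase (chr10:19000910-19015657, minus strand). In Ctr its levels were 6.39, 7.69 and 7.55 CPM. In Lpr they were 14.8, 73.5, 13.03 and 18.1 CPM. In DNase they were 16.4, 16.3, 17.3 and 16.9 CPM. The 4 DNase kidneys were almost equal, whereas Lpr replicate 2 had 4.80 times the mean of the other 3 Lpr kidneys. The log2 fold change of Lpr over Ctr was 2.06 (standard error 0.63, adjusted p = 0.0845 from edgeR) with this kidney, and 1.07 (standard error 0.21, adjusted p = 0.0226) without it. Without Lpr replicate 3 it was 2.30 with an adjusted p of 0.0362. DNase over Ctr gave 1.22 (standard error 0.11, adjusted p = 6.85e-05), so that Tnfaip3 was higher in DNase in this fit, while the adjusted p was 0.195 with all 3 groups in 1 fit.

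Nfkbiz encodes IκBζ, a nuclear IκB protein that takes part in the induction of secondary response genes (chr16:55811375-55838899, minus strand). Ctr kidneys had 4.08, 4.597 and 5.43 CPM. The Lpr levels were 6.19, 27.6, 9.69 and 8.17 CPM, and the DNase levels were 8.36, 8.72, 9.29 and 7.97 CPM. MRL/lpr and Ctr kidneys did not overlap, and Lpr replicate 2 had 3.45 times the mean of the other Lpr kidneys. The log2 fold change of Lpr over Ctr was 1.47 (standard error 0.52, adjusted p = 0.129 from edgeR), and 0.76 (standard error 0.26, adjusted p = 0.155) without that kidney. Nfkbiz was higher in DNase than in Ctr (0.87, standard error 0.15, adjusted p = 0.00272), while the adjusted p was 0.275 with all 3 groups in 1 fit.

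Bcl3 encodes a nuclear IκB protein that binds p50 and p52 homodimers (chr7:19808462-19822770, minus strand). Its Ctr levels were 5.85, 8.81 and 6.87 CPM. Lpr kidneys had 19.0, 25.1, 28.8 and 10.6 CPM, and DNase kidneys had 10.3, 13.8, 15.2 and 11.8 CPM. The highest level was in Lpr replicate 3, the kidney in which longer genes had lower counts, and no MRL/lpr kidney overlapped Ctr. Bcl3 was higher in Lpr (log2 fold change 1.54, standard error 0.35, adjusted p = 0.0242 from edgeR) and in DNase (0.83, standard error 0.19, adjusted p = 0.011). Without Lpr replicate 2 the Lpr value was 1.43 with an adjusted p of 0.0684, and leaving out any 1 Ctr kidney gave adjusted p between 0.0603 and 0.118 (edgeR). Bcl3 overlaps the antisense genes Gm16174 and Gm16175, whose reads could not be told apart from its own without strand.

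**Figure D2:**
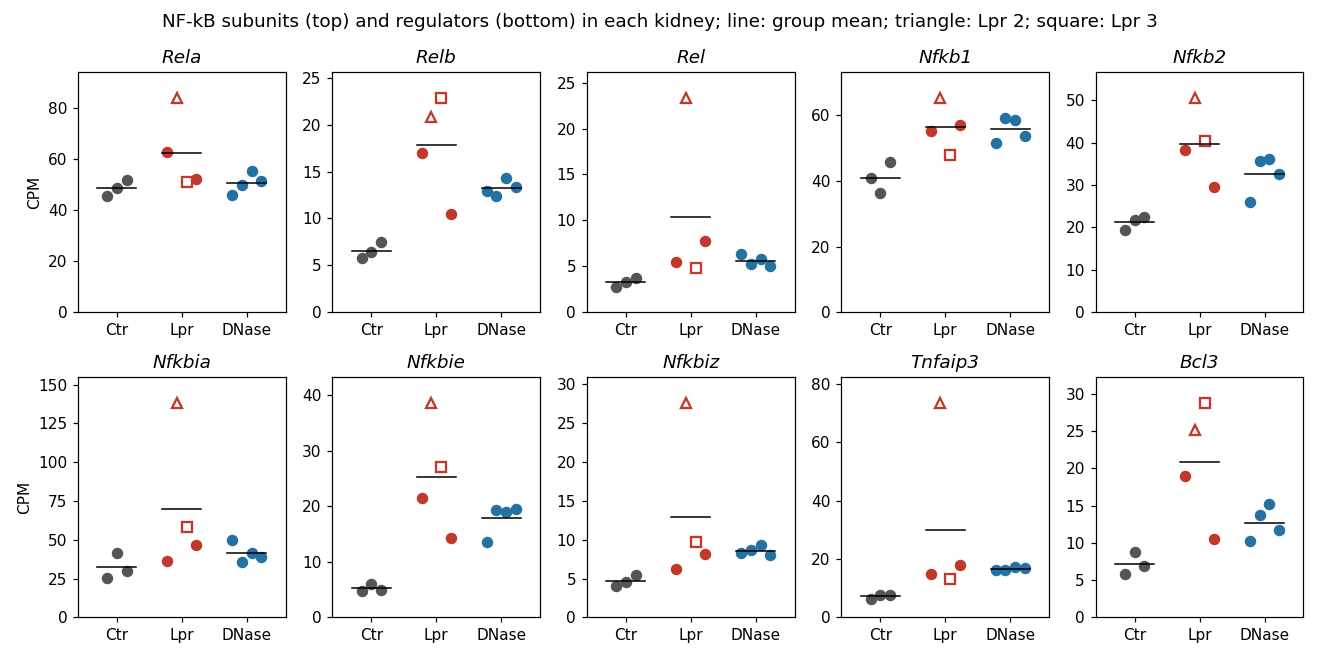
CPM of each gene in each of the 11 kidneys, with subunits in the top row and inhibitors and regulators in the bottom row (points, kidneys; line, group mean; open triangle, Lpr replicate 2; open square, Lpr replicate 3; each axis starts at 0). Lpr replicate 2 lies far above the other Lpr kidneys in Rel, Nfkbia, Nfkbiz and Tnfaip3, and every DNase kidney lies above every Ctr kidney in 8 genes.

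The first comparison asked which components were changed in the diseased kidney. Between Lpr and Ctr, 4 of the 10 genes were higher at an adjusted p under 0.05 (Relb, Nfkb2, Nfkbie and Bcl3) and 0 were lower, by edgeR. At an unadjusted p under 0.05 there were 9. Of all 16074 genes tested, 7.27% were higher and 2.92% lower by the same rule. At the study's stricter threshold, with an absolute log2 fold change above 2 as well, 1 gene was left (Nfkbie), where 4.65% of all genes were higher. In 8 of the 10 genes every Lpr kidney lay above every Ctr kidney, as in 14.4% of all genes. The median log2 fold change was 1.46 over the 10 genes and 0.03 over all genes. The 5 subunits had a median of 0.91 and the 5 inhibitors and regulators a median of 1.54. Single kidneys moved these counts. The number of higher genes was 3 without Lpr replicate 2 (Relb, Nfkbie and Tnfaip3), 7 without Lpr replicate 3 and 5 without both. It was 1 without Ctr replicate 1 or without Ctr replicate 2 (Nfkbie in each case) and 2 without Ctr replicate 3. The median over the 10 genes was 0.82 without Lpr replicate 2.

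In the treated kidneys, the same components were compared with Ctr. Between DNase and Ctr, 8 of the 10 genes were higher at an adjusted p under 0.05 and 0 were lower (edgeR), with Rela and Nfkbia not past the threshold. Of 16100 genes tested, 13.1% were higher and 8.61% lower. None of the 10 passed the study's threshold on the fold change, against 4.56% of all genes higher, as no log2 fold change of a member exceeded 1.78. In 8 of the 10 genes the groups did not overlap, as in 18% of all genes. The median log2 fold change was 0.81 over the 10 genes and 0.002 over all genes. Both comparisons with Ctr share the 3 Ctr kidneys, so their values are not independent of each other. With all 3 groups in 1 fit, which gives them a common estimate of the spread, 8 genes were higher in Lpr and 3 in DNase (Relb, Nfkb2 and Nfkbie). The DNase calls of Rel, Nfkb1, Nfkbiz, Tnfaip3 and Bcl3 were lost in that fit, with adjusted p between 0.054 and 0.404.

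Whether DNase I changed the NF-κB genes of MRL/lpr kidneys was asked by comparing DNase with Lpr. All 10 point estimates were lower in DNase, and 0 passed the test. The lowest p was that of Bcl3, with a log2 fold change of -0.71 (95% interval -1.34 to -0.07, unadjusted p = 0.0339, adjusted p = 0.854 from edgeR), and it was the 1 member at an unadjusted p under 0.05. Of 15832 genes tested, 0% passed by edgeR in either direction, although 886 had an unadjusted p under 0.05. DESeq2 passed 14 genes higher and 10 lower and limma 0, with none of the 10 members among them. In no member did all DNase kidneys lie below all Lpr kidneys, while 1.87% of all genes did so. The median log2 fold change over the 10 genes was -0.54. Nfkbie had -0.50 (95% interval -1.12 to 0.12), Relb -0.42, Rela -0.30 and Nfkb2 -0.28, each with an adjusted p of 0.854 (edgeR). This comparison shares the 4 Lpr kidneys with that of Lpr and Ctr, and the 4 DNase kidneys with that of DNase and Ctr.

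The lower estimates rested in part on Lpr replicate 2. This kidney had the highest level of all 11 in 8 of the 10 genes, as in 14.1% of 16500 genes, with Relb and Bcl3 as the exceptions. Without it the median over the 10 genes was -0.14, with 3 genes higher and 7 lower in DNase. Tnfaip3 went from -0.83 (95% interval -1.97 to 0.32) to 0.13 (95% interval -0.23 to 0.48). Nfkbiz went from -0.58 to 0.10, and Nfkbia from -0.75 to -0.19. In the 8 genes where Lpr replicate 2 was highest, leaving it out was bound to raise the estimate. Other Lpr kidneys moved estimates the other way. Without Lpr replicate 4, Bcl3 was at -0.92, Nfkbie at -0.70, Relb at -0.60 and Nfkb2 at -0.40. Without Lpr replicate 1, Nfkbia was at -0.96 and Nfkbiz at -0.81. Without both Lpr replicates 2 and 3 the median was -0.03. Bcl3 was then at -0.21 (95% interval -0.78 to 0.35). With all kidneys, the intervals ran from -1.92 to 0.17 for Rel and from -0.30 to 0.28 for Nfkb1, and no upper limit was above 0.36 (Nfkbiz). The comparison does not show that the levels were alike.

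**Figure D3:**
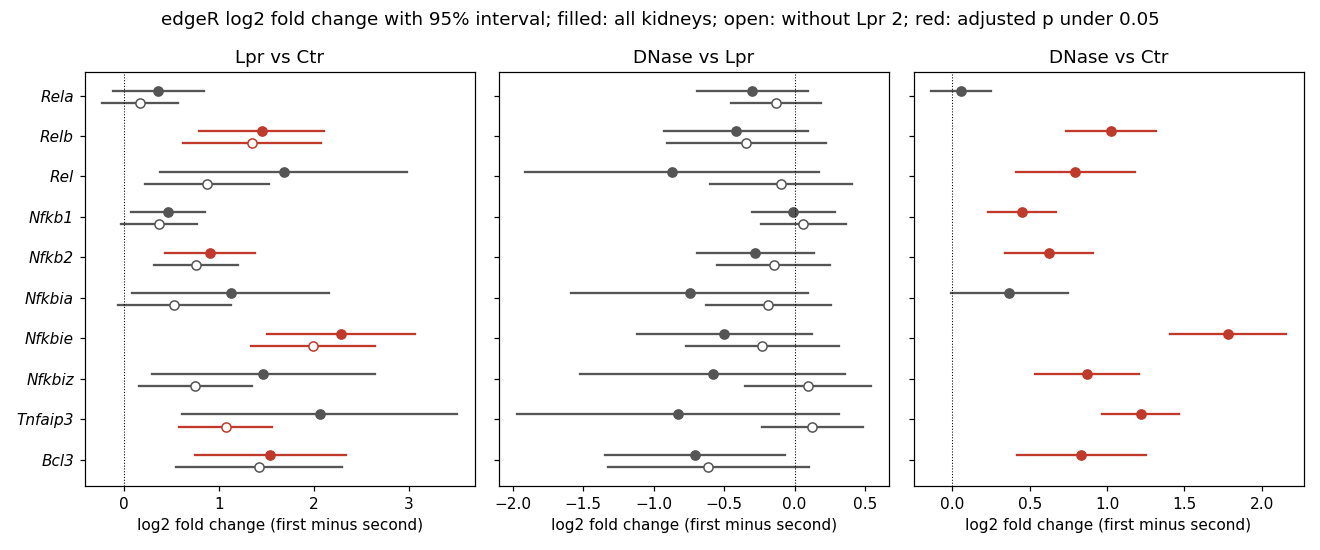
Log2 fold change of each gene with its 95% interval in the 3 comparisons (filled, all kidneys; open, without Lpr replicate 2; red, adjusted p under 0.05 from edgeR). In DNase against Lpr all 10 filled points are below 0 and none is red, and the open points of Nfkb1, Nfkbiz and Tnfaip3 lie above 0.

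The spread between mice was larger in Lpr than in DNase over most genes, and these 10 were no exception. The SD of log2 CPM was larger in Lpr for all 10 genes and for 84.4% of 16500 genes. It was also larger for all 10 without Lpr replicate 2, where Lpr replicate 3 remained in the group. The share over all genes without Lpr replicate 2 was not computed. For Tnfaip3 it was 1.15 in Lpr, 0.24 in Lpr without replicate 2 and 0.04 in DNase. For Relb, which was not high in Lpr replicate 2 alone, it was 0.50 in Lpr, 0.57 without that kidney and 0.09 in DNase. Lpr replicate 2 was set against the mean of the other 3 Lpr kidneys for all 16500 genes, and 37 genes had a larger ratio than Tnfaip3, 61 than Rel, 85 than Nfkbiz and 139 than Nfkbia. The ratios of Relb (1.24) and Nfkb1 (1.22) were small.

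**Figure D4:**
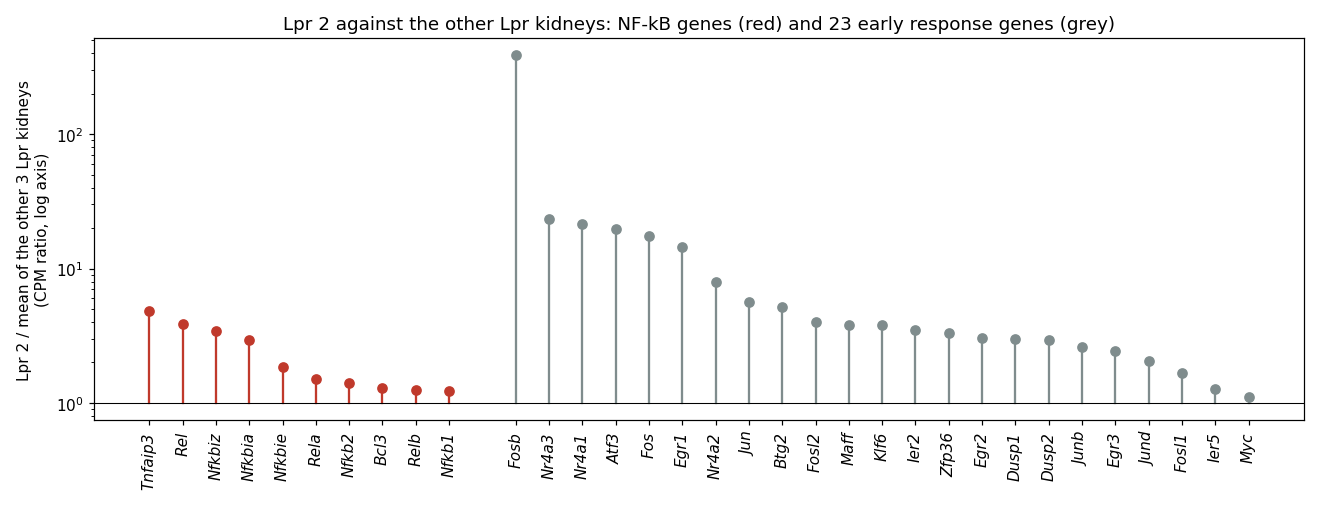
CPM in Lpr replicate 2 divided by the mean of the other 3 Lpr kidneys, on a log axis, for the 10 genes of the NF-κB system (red) and 23 immediate-early genes chosen after the values were seen (grey). Tnfaip3, Rel, Nfkbiz and Nfkbia lie between 2.94 and 4.80, and the immediate-early genes run from 1.10 to 387.

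Ratios of 2 genes within a kidney, which do not depend on the scaling of the library, were used to ask whether the arms of the system moved together. The log2 ratio of Relb to Rela, from FPKM with 0.01 added, was -4.07, -4.02 and -3.90 in the Ctr kidneys. In the Lpr kidneys it was -2.98, -3.11, -2.25 and -3.41, and in the DNase kidneys it was -2.93, -3.09, -3.04 and -3.04. No MRL/lpr kidney overlapped Ctr. The difference from Ctr was 1.05 in Lpr (p = 0.0571) and 0.97 in DNase (p = 0.0286, the smallest this design can give), by exact permutation tests, two-sided. After adjustment over the 12 ratio tests both had an adjusted p of 0.267, so neither passed. DNase against Lpr gave -0.09 (exact p = 0.857). For Nfkb2 to Nfkb1 the Ctr kidneys lay between -2.38 and -2.05, the Lpr kidneys between -2.25 and -1.56 and the DNase kidneys between -2.29 and -2.004, so all groups overlapped. The same held for Bcl3 to Nfkb1, from -1.50 to -0.74 in Ctr, -1.13 to 0.56 in Lpr and -1.03 to -0.65 in DNase. Nfkbia to Rela ran from 0.02 to 0.62 in Ctr, 0.07 to 1.58 in Lpr and 0.38 to 0.97 in DNase. In the 3 ratios other than Relb to Rela, exact p lay between 0.0857 and 0.457 and adjusted p between 0.267 and 0.499. The levels of the ratios depend on the gene lengths given above, which nearly cancel in their differences. The length bias of Lpr replicate 3 need not cancel where the 2 genes differ in length. This kidney was highest in Lpr for Bcl3 to Nfkb1, where Bcl3 was given the shorter length (1846 against 4555 bases). It was also highest for Relb to Rela and Nfkb2 to Nfkb1, where the first gene was given the longer length by the authors. By GENCODE M21 exons, however, Nfkb2 (4584 bases) was shorter than Nfkb1 (12061 bases). Leaving this kidney out moved the Bcl3 to Nfkb1 difference from 1.00 to 0.74 (Lpr over Ctr) and from -0.62 to -0.36 (DNase over Lpr). The part of the bias was not tested.

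Upstream of the subunits, few kinases passed the test. Of 11 IκB kinase and upstream kinase genes, 1 was higher and 1 lower in Lpr than in Ctr, beside 7.27% and 2.92% of all genes. The median log2 fold change was 0.02, and 0.03 over all genes. Chuk, the IKKα subunit that drives the non-canonical arm, had 138 to 162 CPM in Ctr, 95.1 to 105 in Lpr and 92.9 to 101 in DNase. It fell by 0.61 in Lpr and by 0.65 in DNase on the log2 scale (adjusted p = 0.0235 and 0.000334 from edgeR). Ikbke, a noncanonical IκB kinase of innate immunity, was higher in both, by 1.09 and 0.91 (adjusted p = 0.031 and 0.011). Map3k8, a kinase of the Toll-like receptor pathway, had a log2 fold change of 1.11 in Lpr that did not pass (adjusted p = 0.0712). In DNase Ikbkb, the catalytic IKKβ subunit, named after its values were seen, fell by 0.41 against Ctr (adjusted p = 0.00423), and its value in Lpr was -0.30 (adjusted p = 0.341).

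Among receptors, 4 of 11 were higher in Lpr (Tnfrsf1b, Cd40, Tlr2 and Tlr7), with a median of 1.83, and 7 of 11 in DNase, with a median of 1.59. Tlr2, which senses bacterial lipoproteins and danger signals, rose from 4.59 ± 0.767 CPM (SD, n = 3) in Ctr to 28.4 ± 13.1 in Lpr (SD, n = 4) and was 15.7 ± 0.588 in DNase (SD, n = 4). Its log2 fold change over Ctr was 2.64 in Lpr (adjusted p = 0.00313) and 1.78 in DNase (adjusted p = 3.34e-05). Tnfrsf1b, the second receptor for tumor necrosis factor, and Tlr7, a sensor of single-stranded RNA, were higher by 2.01 and 1.83 in Lpr (adjusted p = 0.00359 and 0.0105). Tlr4, the receptor for lipopolysaccharide, had 4.56 to 9.92 CPM in Ctr, 11.0 to 15.1 in Lpr and 11.3 to 13.97 in DNase. Its log2 fold change was 0.88 in Lpr (adjusted p = 0.0988) and 0.80 in DNase (adjusted p = 0.0383), and DNase against Lpr gave -0.07 (95% interval -0.42 to 0.28, adjusted p = 0.923). Myd88, the adaptor of most Toll-like receptors, had log2 fold changes of 0.49 in Lpr (adjusted p = 0.0993) and 0.35 in DNase (adjusted p = 0.0161), and of -0.13 between DNase and Lpr (adjusted p = 0.856). Of 20 adaptors 3 were higher in Lpr, among them Traf1 and Irak3, and 7 in DNase, and 0 were lower in either. Traf1 and Irak3 were higher by 1.59 and 1.34 in Lpr (adjusted p = 0.0239 and 0.0469).

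Of the pathway lists, ligands and target genes had the highest medians. Of 9 ligand genes, 8 were tested in Lpr against Ctr (all but Cd40lg), of which 6 were higher, with a median of 2.80. In DNase against Ctr 8 were tested (all but Il1a), of which 7 were higher, Cd40lg among them, with a median of 3.04. Some ligands had few counts in Ctr kidneys, 0 to 1 for Tnfsf11, 1 to 4 for Lta and 1 to 3 for Cd40lg. In DNase kidneys they had 19 to 44, 14 to 41 and 13 to 26, and in Lpr Tnfsf11 had 12 to 21 and Lta 10 to 17. They passed the filter on low counts through the groups where they were high, so their part in these counts and medians was fixed in part by the filter. Ltb, the lymphotoxin β chain that activates the non-canonical arm, was at 1.91 ± 0.305 CPM (SD, n = 3) in Ctr, 15.6 ± 7.86 in Lpr and 16.4 ± 5.60 in DNase (SD, n = 4 each). Il1b, an inflammatory cytokine, and Tnfsf13b, which encodes the B cell survival factor BAFF, were higher by 3.44 and 2.57 in Lpr on the log2 scale (adjusted p = 0.00299 and 0.00425). Of the 22 target genes tested in each comparison with Ctr, 13 were higher and 0 lower in both Lpr and DNase, with medians of 2.51 and 1.63. The 3 with the smallest p in Lpr were Bcl2a1b, a survival gene, Cxcl10, a chemokine for T cells, and Irf1, an interferon-responsive transcription factor, at 4.20, 3.31 and 2.70. Ubiquitin editors other than Tnfaip3 had lower medians, with 2 of 13 higher in Lpr (Tnip1 at 0.79 and Tnip3 at 2.42, partners of A20, adjusted p = 0.0336 and 0.0299) and 4 of 13 in DNase, at medians of 0.27 and 0.23. Tnip3 had few counts, 2 to 10 in Ctr, 24 to 35 in Lpr and 11 to 49 in DNase kidneys. Rbck1, a subunit of the linear ubiquitin ligase, had 0.39 in Lpr (adjusted p = 0.151). Of the other IκB family genes and genes that act on IκB proteins, 1 of 6 was higher in Lpr (Nfkbid, a nuclear IκB, 1.94, adjusted p = 0.0356) and 2 of 6 in DNase (Nfkbid and Nkiras1). In Lpr, Nkiras1 had 1.07 (adjusted p = 0.0541) and Nfkbib, which encodes IκBβ, 0.41 (adjusted p = 0.271). These counts stand beside the 7.27% and 13.1% of all genes that were higher, and beside the leukocyte markers given above, whose part was not tested.

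Between DNase and Lpr none of the genes in these lists passed the test (edgeR). The medians ran from -0.49 for target genes to 0.08 for ligands, with 19 of 23 target genes and 5 of 6 other IκB family genes lower in DNase. The median over all genes was -0.02, and the share of all genes that were lower was not computed. Target genes summed to 2082 and 2264 CPM in Lpr replicates 2 and 3, but to 1615 and 1260 CPM in Lpr replicates 1 and 4. In DNase kidneys they summed to 1572 to 1697 CPM. These sums weigh abundant genes most, and the lists were not tested without single kidneys. Tlr2 had -0.85 (adjusted p = 0.82), with 46.8 CPM in Lpr replicate 2, 16.0 to 27.0 in the other Lpr kidneys and 14.9 to 16.2 in DNase. Cxcl10 had -1.10 (adjusted p = 0.82), with 23.7 to 78.8 CPM in Lpr and 21.3 to 26.9 in DNase. In both genes 3 of 4 Lpr kidneys lay above every DNase kidney. Cd40lg, a T cell ligand that activates the non-canonical arm, was named after its values were seen. It had few counts, 13 to 26 in DNase kidneys and 5 to 10 in Lpr kidneys (log2 fold change 1.30, adjusted p = 0.82 from edgeR). The filter on low counts removed it from Lpr against Ctr, so it was tested here only through its DNase counts.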

How the data were processed

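RNA of 11 kidneys was sequenced, 1 library per mouse. The deposited table holds raw counts per gene and FPKM (counts scaled to gene length and library size) side by side, made by the authors. Per the submitters' processing notes, fastp, HTSeq and the mm10 genome were used. The annotation and the strand setting are not given in the sources used here. Library totals came from the counts.

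Counts were tested with edgeR 4.0.16 (filterByExpr, TMM scaling, quasi-likelihood test) in 2-group fits in R 4.3.3, with Benjamini-Hochberg adjustment over all genes tested. Passing meant an adjusted p under 0.05. The study's threshold adds an absolute log2 fold change above 2. CPM used TMM factors over all 11 libraries. Ratios used FPKM plus 0.01 and exact permutation tests over 12 comparisons. The tests were tested on simulated data, with 100 genes changed at each fold change. At a log2 fold change of 1, edgeR recovered 10 between Lpr and Ctr, 24 between DNase and Lpr and 68 between DNase and Ctr. At 2 it recovered 71, 91 and 95. It made 3, 7 and 6 false calls in simulations of 16074, 15832 and 16100 genes, and DESeq2 made 65, 55 and 36. In the simulation small changes were thus often missed, most of all in the comparisons with Lpr. The simulated counts had the same spread in both groups, while in these data most genes spread more in Lpr than in DNase. They also held no kidney with a pattern of its own, such as Lpr replicate 2 or 3. The numbers recovered and falsely called need not hold for the real data.

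Named were the 10 genes, the 3 genes with the smallest p between Lpr and Ctr in each pathway list, any list gene past the threshold between DNase and Lpr, Tlr4 and Myd88. One gene that this rule names is not reported here. The 10 genes and the lists were chosen with earlier results of these data known. Alternatives were DESeq2 1.42.0, limma 3.58.1 on log2 FPKM, other scalings and filters, all 3 groups in 1 fit, a replicate block and leaving out kidneys. P-values from edgeR set a group difference against the spread between these mice, which was estimated in part over all genes. Those of the ratios set it against every relabelling of the mice. Intervals of single libraries would cover counting error only and are not given.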

Additional observations from a re-analysis of the deposited data

Results flagged for a closer look

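In groups of 4 kidneys, a level counted as an outlier where its gap to the nearest other kidney, divided by the range of the group, exceeded Dixon's critical value at the 95% level. Of 20 groups tested, 4 met this. The same kidneys supply the values of all genes, so the 20 are not independent and the count cannot be set against a chance rate. The 3 Ctr kidneys were too few to be tested. In Lpr replicate 2, Tnfaip3 had 73.55 CPM (gap ratio 0.916), Rel had 23.38 CPM (0.841) and Nfkbiz had 27.63 CPM (0.837), each far above the other 3 Lpr kidneys. The same kidney had the highest sum of immediate-early, T cell and macrophage genes among the Lpr kidneys, and the part of these in the outlying levels was not tested. In DNase replicate 1, Nfkbie had 13.49 CPM (0.901), below the other 3 DNase kidneys.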

How the results depend on the processing

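Of the log2 fold changes of the 10 genes under all alternatives, 491 kept direction and side of the threshold, 22 lost the call, 15 gained one and 12 changed sign. The number of genes higher in Lpr than in Ctr was 4, and was 7 with DESeq2, 8 with all 3 groups in 1 fit, 1 with limma on log2(FPKM + 1) over all genes above 0, and 1 to 7 when 1 kidney was left out. At the study's threshold it was 1, and was 2 with DESeq2, with no filter beyond 1 count and with all 3 groups in 1 fit, 0 with limma on log2(FPKM + 1) with or without its filter, 0 without Lpr replicates 2 and 3 (chosen after seeing the data), and 0 to 2 when 1 kidney was left out. At an adjusted p under 0.05 alone, the number of genes higher in DNase than in Ctr was 8. That number was 3 with all 3 groups in 1 fit and 8 to 9 when 1 kidney was left out. The cause was not tested.

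All changes of sign were between DNase and Lpr. Nfkb1, at -0.01, was 0.013 with upper-quartile scaling, 0.044 and 0.048 with limma (pseudocounts 1, with or without its filter, and 0.1), 0.023 without DNase replicate 1 and 0.0070 without DNase replicate 4, within -0.086 to 0.061 when 1 kidney was left out. On leaving out 1 kidney, Nfkbiz ran from -0.81 to 0.098 and Tnfaip3 from -1.09 to 0.13, and the upper end of all 3 was without Lpr replicate 2. Without Lpr replicates 2 and 3, Nfkbiz was 0.26, Tnfaip3 0.026 and Nfkbie 0.0010. The log2 ratio of Relb to Rela, at -0.09, ran from -0.24 to 0.14 when 1 kidney was left out, with 0.14 without Lpr replicate 3.

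Replicate numbers come from the labels and do not pair mice. Deviations of same-numbered kidneys from their group means correlated between -0.28 and 0.16 over 10 pairs. With the replicate block, 4 genes were higher in Lpr and 6 in DNase than in Ctr (Rel and Nfkb1 were not past the threshold, at adjusted p of 0.0716 and 0.0559), and 0 passed between DNase and Lpr.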
